A study of Mus musculus with 6 samples.

Results

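Smooth muscle and contractile fibroblast genes were examined in chondrocytes lacking the adenosine receptor encoded by Adora2a. The 10 genes Acta2, Myh11, Myl9, Tagln, Cnn1, Cnn2, Tpm1, Tpm2, Cald1 and Smtn were taken by symbol from the 47480 rows of the deposited table, and all 10 were found. The A2ARKO libraries came from mice with a global knockout of the receptor on a C57BL/6 background, and the WT libraries from C57BL/6 mice of the same facility. Each library held RNA of trypsinized primary chondrocytes of newborn mice, pooled over an entire litter, with 3 litters per genotype. No treatment is given, the ages in days and the deleted part of the gene are not given, and the pooling leaves no value for single animals. The study set the genotypes side by side to characterize drivers of osteoarthritis, a joint disease with loss of cartilage.

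Smooth muscle cells contract when myosin II pulls on actin filaments that contain the smooth muscle isoform of actin. Tropomyosin, caldesmon and calponin lie along the thin filament and tune that pull, and phosphorylation of the regulatory myosin light chain switches it on. Fibroblasts that take on a contractile state, called myofibroblasts, switch on many of the same genes, and chondrocytes that flatten out and lose their cartilage character in culture are known to gain actin stress fibres. Serum response factor (SRF) with its cofactors of the myocardin family drives many of these genes through a DNA element called the CArG box.

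Several of these genes differed as much among litters of one genotype as between the genotypes. Acta2, Tagln, Myh11, Cnn1 and Myl9 varied between 2.71-fold and 7.94-fold among the 3 WT libraries and between 3.48-fold and 6.08-fold among the 3 A2ARKO libraries. Of the 10 genes, 0 were called higher and 0 lower in A2ARKO (limma, Benjamini-Hochberg adjusted p below 0.05), where 5.08% of the 11595 genes tested were called, 3.31% higher and 1.77% lower. At an unadjusted p below 0.05, 0 of the 10 passed, against 24.7% of all genes tested. All 10 reached 1 FPKM (fragments per kilobase of gene length, scaled to the fragments of the library) in at least 3 of the 6 libraries and so entered the test. Fold changes below are differences of mean log2(FPKM + 1), A2ARKO minus WT, and the added 1 makes those of low genes smaller than their true ratio.

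The libraries differed widely in cell markers. The targeted gene Adora2a read 0.41, 0.54 and 0.66 FPKM in A2ARKO replicates 1, 2 and 3, and 9.36, 7.31 and 3.46 FPKM in WT replicates 1, 2 and 3 (log2 difference -2.25, SE 0.31; limma adjusted p = 0.0203, between 0.00999 and 0.0955 with each library left out in turn, and 0.0533 with no filter). The summed level of 9 chondrocyte markers lay between 2167 and 6006 FPKM in A2ARKO and between 480 and 24167 FPKM in WT. The cartilage proteoglycan gene Acan was at 3.55 FPKM and the cartilage matrix gene Matn1 at 0.57 FPKM in WT replicate 3, so the defining markers were low in that library. WT replicate 2 held 12 of 12 skeletal muscle markers at 1 FPKM or more, at a sum of 2069 FPKM, where the other libraries summed to between 12.2 and 45.8 FPKM. The same library had a sum of 1806 FPKM over 9 macrophage markers, against 16.1 to 40.5 FPKM in A2ARKO and 120.4 and 168 FPKM in the other WT libraries. The spacing of the low values gave an estimated depth of 51.5 to 58.0 M reads (M, mega) in A2ARKO and 41.6 to 52.5 M reads in WT.

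Acta2 encodes smooth muscle alpha actin, the classical marker of myofibroblasts (mm10 chromosome 19, 34241090 to 34255590, minus strand). Its level was 1147.27, 657.02 and 329.59 FPKM in A2ARKO replicates 1, 2 and 3, and 378.18, 306.94 and 830.71 FPKM in WT replicates 1, 2 and 3. A2ARKO replicate 1 and WT replicate 3 were the high libraries, A2ARKO replicate 3 was near the 2 low WT libraries, and the genotypes overlapped. The mean was 711 ± 412 FPKM in A2ARKO and 505 ± 284 FPKM in WT (SD, n = 3 each), with a log2 fold change of 0.45 and a 95% interval of -0.94 to 1.85 (limma adjusted p = 0.676). That log2 difference was 0.021 without A2ARKO replicate 1, 0.17 without WT replicate 2, 0.92 without A2ARKO replicate 3 and 0.88 without WT replicate 3. In these pooled cells, a change in the number of cells that express a gene and a change in its RNA per cell cannot be told apart.

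Myh11, the smooth muscle myosin heavy chain and one of the most restricted markers of mature smooth muscle, was the lowest of the 10 (chromosome 16, 14194535 to 14291372, minus strand). It read 6.69, 3.35 and 1.10 FPKM in A2ARKO replicates 1, 2 and 3, and 0.30, 0.39 and 1.89 FPKM in WT replicates 1, 2 and 3. The mean was 3.71 ± 2.81 FPKM in A2ARKO and 0.86 ± 0.893 FPKM in WT, a ratio of means of 4.32. The genotypes still overlapped, because A2ARKO replicate 3 lay below WT replicate 3. Its log2 fold change was 1.25 with an interval of -0.06 to 2.56 (limma adjusted p = 0.218), and 2.06 with a pseudocount of 0.1 (adjusted p = 0.202). Without A2ARKO replicate 1 it was 0.80, and without A2ARKO replicate 3 it was 1.74. About 95 reads stood behind its lowest value, by the estimated depth and the annotated exon length.

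Myl9 encodes the regulatory light chain of smooth muscle and non-muscle myosin II (chromosome 2, 156775420 to 156781658, plus strand). Its level was 260.32, 131.41 and 71.93 FPKM in A2ARKO replicates 1, 2 and 3, and 53.07, 75.78 and 186.30 FPKM in WT replicates 1, 2 and 3. The high libraries were those of Acta2, and the genotypes overlapped. The log2 fold change was 0.57 with an interval of -0.93 to 2.07 (limma adjusted p = 0.624). It was 0.096 without A2ARKO replicate 1 and 0.18 without WT replicate 1, and 1.02 without A2ARKO replicate 3 and 1.079 without WT replicate 3.

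Tagln encodes transgelin, or SM22 alpha, an actin-binding protein of the calponin family and an early smooth muscle marker (chromosome 9, 45929619 to 45936058, minus strand). It read 459.84, 250.28 and 122.90 FPKM in A2ARKO replicates 1, 2 and 3, and 62.52, 120.69 and 287.07 FPKM in WT replicates 1, 2 and 3. A2ARKO replicate 3 nearly equalled WT replicate 2, and WT replicate 3 was above A2ARKO replicates 2 and 3. The mean was 278 ± 170.1 FPKM in A2ARKO and 157 ± 117 FPKM in WT, with a log2 fold change of 0.90 and an interval of -0.77 to 2.56 (limma adjusted p = 0.477). It was 0.43 without A2ARKO replicate 1 and 0.38 without WT replicate 1, and 1.38 without A2ARKO replicate 3 and 1.47 without WT replicate 3. On the opposite strand, exons of the antisense gene Gm48529 share 1241 nt with its exons and those of Pcsk7 share 108 nt. The strand setting of the counting is not given, so reads of these overlaps cannot be assigned.

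Cnn1 encodes calponin 1, a thin-filament inhibitor of myosin that marks differentiated smooth muscle (chromosome 9, 22099216 to 22109630, plus strand). It was at 56.52, 26.16 and 9.65 FPKM in A2ARKO replicates 1, 2 and 3, and at 3.11, 3.36 and 24.68 FPKM in WT replicates 1, 2 and 3. WT replicate 3 stood 7.94-fold above WT replicate 1 and fell inside the A2ARKO range. Cnn1 had the highest fitted difference of the 10, with a log2 fold change of 1.73 and the broadest interval, -0.48 to 3.93 (limma adjusted p = 0.299). With each library left out in turn, the log2 fold change lay between 1.14 (without A2ARKO replicate 1) and 2.59 (without WT replicate 3) and the adjusted p between 0.0999 and 0.585.

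Cnn2, the calponin of non-muscle as well as smooth muscle cells, had a narrower spread, 1.83-fold among the A2ARKO libraries and 1.49-fold among the WT libraries. It read 171.00, 128.87 and 93.47 FPKM in A2ARKO replicates 1, 2 and 3, and 149.98, 113.97 and 169.93 FPKM in WT replicates 1, 2 and 3. The genotypes overlapped across nearly their whole range, and the log2 fold change was -0.16 with an interval of -0.80 to 0.48 (limma adjusted p = 0.7504). Cnn2 lies on the chromosome of the targeted gene, 4.65 Mb from Adora2a (chromosome 10, 79988584 to 79996062, plus strand).

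**Figure D1:**
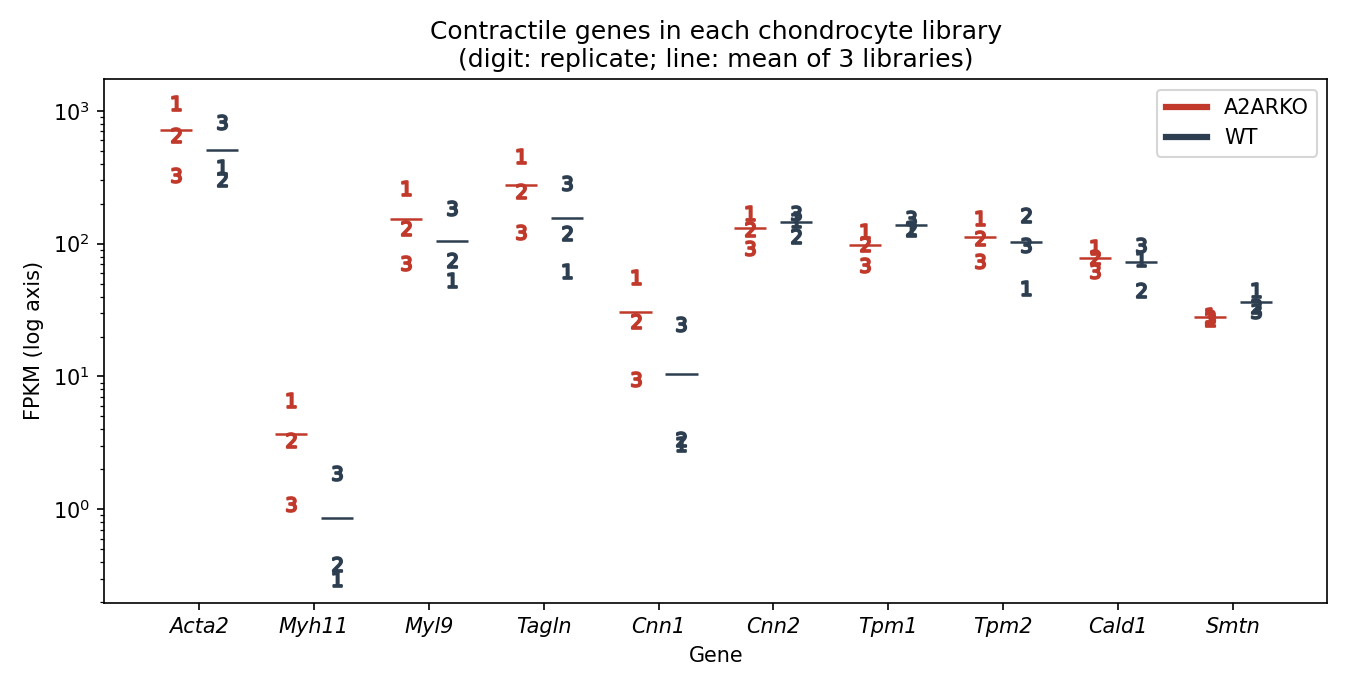
FPKM of the 10 genes in each library (log axis; A2ARKO in red on the left, WT in dark blue on the right of each pair; the digit is the replicate and the line the mean of 3 libraries). For Acta2, Myh11, Myl9, Tagln and Cnn1, A2ARKO replicate 1 is the highest A2ARKO library and WT replicate 3 the highest WT library, and Cnn1 runs from 3.11 to 56.52 FPKM, while Smtn keeps between 27.29 and 44.61 FPKM.

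Tpm1 and Tpm2 encode alpha and beta tropomyosin, coiled coils along the actin filament that are also made in striated muscle. Tpm1 was at 124.08, 99.32 and 69.63 FPKM in A2ARKO replicates 1, 2 and 3, and at 131.17, 129.52 and 157.14 FPKM in WT replicates 1, 2 and 3 (chromosome 9, 67022590 to 67049406, minus strand). Here, in the FPKM as deposited, the A2ARKO libraries lay below every WT library without overlap. That can depend on library scaling, since all FPKM summed to 269052 in A2ARKO replicate 1 and 292850 in WT replicate 1. The mean was 97.7 ± 27.3 FPKM in A2ARKO and 139 ± 15.5 FPKM in WT, with a log2 fold change of -0.54 and an interval of -1.09 to 0.01 (limma unadjusted p = 0.054, adjusted p = 0.211). It was -0.32 without A2ARKO replicate 3.

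Tpm2 read 155.20, 110.54 and 73.84 FPKM in A2ARKO replicates 1, 2 and 3, and 46.40, 163.22 and 96.93 FPKM in WT replicates 1, 2 and 3 (chromosome 4, 43514711 to 43523765, minus strand). Unlike the other 9 genes, its highest library was WT replicate 2, the library with the skeletal muscle markers, and the part of these in its level was not tested. In that library the ratio of Tpm2 to Tpm1 was 1.26, against 0.354 and 0.617 in WT replicates 1 and 3, and between 1.06 and 1.25 in the A2ARKO libraries. The log2 difference was 0.26 (limma adjusted p = 0.795). Without WT replicate 2 it was 0.68, and without WT replicate 1 it was -0.22.

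Cald1, encoding caldesmon, which inhibits myosin on the thin filament in smooth muscle and non-muscle cells, was at 94.30, 78.67 and 62.13 FPKM in A2ARKO replicates 1, 2 and 3, and at 76.91, 45.05 and 97.57 FPKM in WT replicates 1, 2 and 3 (chromosome 6, 34598500 to 34775473, plus strand). The genotypes overlapped, with a log2 fold change of 0.15 and an interval of -0.61 to 0.90 (limma adjusted p = 0.812), and without WT replicate 2 the sign turned to -0.16. The table does not separate its smooth muscle and non-muscle isoforms.

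Smtn encodes smoothelin, a cytoskeletal protein first known from contractile smooth muscle (chromosome 11, 3517523 to 3540612, minus strand). It was the steadiest of the 10, at 28.80, 27.29 and 27.98 FPKM in A2ARKO replicates 1, 2 and 3, and 44.61, 33.77 and 31.02 FPKM in WT replicates 1, 2 and 3. The A2ARKO libraries were again all below the WT libraries, and WT replicate 1 was the high one, not WT replicate 3. The log2 fold change was -0.35 with an interval of -0.70 to 8.28e-05 (limma unadjusted p = 0.05004, adjusted p = 0.202). It was -0.20 without WT replicate 1. In the FPKM as deposited, Tpm1 and Smtn make 2 of 10 genes without overlap between the genotypes, where 32.9% of all genes tested had none. Both were lower, as were 14.9% of all genes tested, and 0 of 10 were higher without overlap, where 18.0% were.

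**Figure D2:**
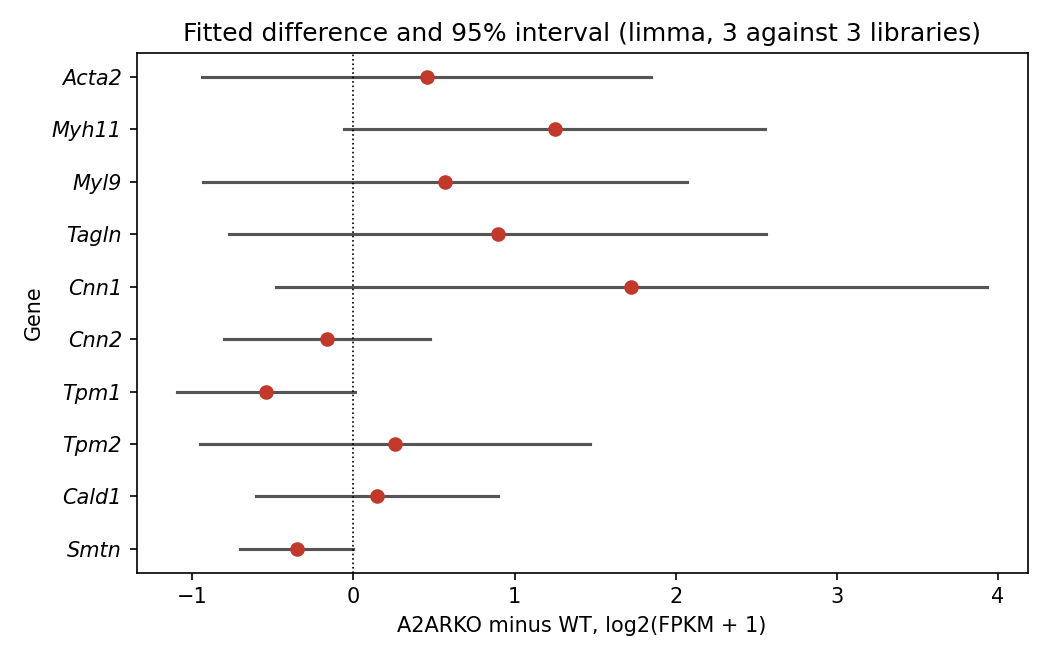
Fitted difference of log2(FPKM + 1), A2ARKO minus WT, for each gene (point) with its 95% interval (line) from limma over 3 A2ARKO and 3 WT libraries. All 10 intervals include 0, from Cnn1 at 1.73 to Tpm1 at -0.54; the upper ends for Tpm1 (0.01) and Smtn (8.28e-05) touch 0.

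The median log2 fold change of the 10 genes was 0.36, beside 0.002 for all 11595 genes tested, and 7 lay above 0 and 3 below. Against all genes tested, their spread stood out more than their difference. The residual SD between libraries of a genotype had a median of 0.771 over the 10 genes and 0.162 over all genes tested. A wide spread was not particular to these genes. That median was 1.70 for the chondrocyte, 2.53 for the skeletal muscle and 1.48 for the macrophage markers tested. For the pericyte markers tested it was 0.525, and for the myofibroblast and fibroblast matrix genes 0.460. Cnn1, Tagln, Myl9, Acta2, Myh11 and Tpm2 had a larger residual SD than 96.4% or more of the tested genes. Cald1, Cnn2 and Tpm1 stood at percentiles 89.3, 84.6 and 79.9, and Smtn at 58.8. The median SD of the 10 genes was 0.716 in A2ARKO and 0.698 in WT, where that of all tested genes was 0.0966 in A2ARKO and 0.192 in WT.

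**Figure D3:**
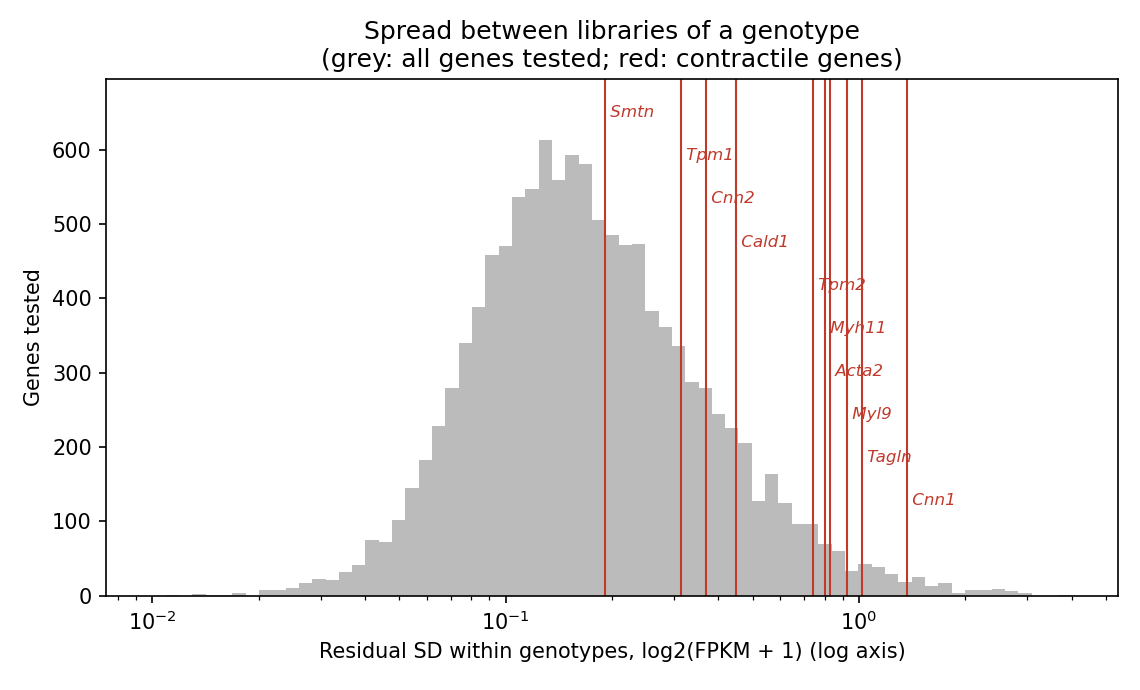
Residual SD between libraries of one genotype on the log2(FPKM + 1) scale (log axis) for the 11595 genes tested (grey, number of genes per bin), with the 10 contractile genes as red lines. Smtn lies at 0.191, near the median of 0.162, and Cnn1 lies farthest out at 1.37.

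The 10 genes mostly shared the order of the A2ARKO libraries and the highest WT library, but not the order of the other WT libraries. A2ARKO replicate 1 was the highest A2ARKO library for 10 of 10 genes, and A2ARKO replicate 3 the lowest for 9, where these shares were 42.1% and 35.2% of all genes tested. WT replicate 3 was the highest WT library for 8 of 10 genes, against 34.2% of all genes tested, and the exceptions were Tpm2 and Smtn. Of these 8, Tagln, Myh11, Cnn1 and Myl9 had WT replicate 2 above WT replicate 1, and Acta2, Cnn2, Tpm1 and Cald1 had WT replicate 1 above WT replicate 2. Macrophage markers were highest in A2ARKO replicate 1 in 9 of 9, with sums of 40.5, 20.6 and 16.1 FPKM in A2ARKO replicates 1, 2 and 3. All were lowest in A2ARKO replicate 3 except Ptprc, which was tied at 0.01 FPKM in A2ARKO replicates 2 and 3. C1qa, C1qb, C1qc, Ptprc and Mrc1 were below 1 FPKM in every A2ARKO library. Skeletal muscle markers were highest in A2ARKO replicate 1 in 12 of 12, with sums of 45.8, 14.2 and 21.7 FPKM in A2ARKO replicates 1, 2 and 3. Both were highest in WT replicate 2 among the WT libraries, and their part in the contractile gene levels was not tested. Summed over the 10 genes, the level was 2504, 1513 and 862 FPKM in A2ARKO replicates 1, 2 and 3, and 946, 993 and 1883 FPKM in WT replicates 1, 2 and 3. The genes together made 0.931%, 0.557% and 0.287% of all FPKM in A2ARKO replicates 1, 2 and 3, and 0.323%, 0.392% and 0.815% in WT replicates 1, 2 and 3. Acta2 alone held 38.2% to 45.8% of the sum in A2ARKO and 30.9% to 44.1% in WT.

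Within each genotype, the composition of the set shifted with its total. There Tagln, Cnn1 and Myh11 took a larger share of the sum in the libraries with the higher sum, and Cnn2, Tpm1 and Smtn a smaller one. The ratio of Cnn1 to Cnn2, which does not depend on the scaling of a library, was 0.331, 0.203 and 0.103 in A2ARKO replicates 1, 2 and 3, and 0.0207, 0.0295 and 0.145 in WT replicates 1, 2 and 3. The ratio of Acta2 to the cytoplasmic actin gene Actb was 1.61, 1.098 and 0.724 in A2ARKO replicates 1, 2 and 3, and 0.698, 0.576 and 1.52 in WT replicates 1, 2 and 3. Both ratios were highest in A2ARKO replicate 1 among the A2ARKO libraries and in WT replicate 3 among the WT libraries. Tagln stayed at 0.373 to 0.401 of the Acta2 level in A2ARKO and at 0.346 and 0.393 in WT replicates 3 and 2, but at 0.165 in WT replicate 1.

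Within each genotype, chondrocyte markers were lowest in the library where most of the contractile genes were highest. All 9 of them were highest in A2ARKO replicate 3 and lowest in A2ARKO replicate 1, and highest in WT replicate 1 and lowest in WT replicate 3. Col2a1, the main cartilage collagen, was at 1362.74, 2938.50 and 3886.55 FPKM in A2ARKO replicates 1, 2 and 3, and at 18662.37, 808.16 and 184.58 FPKM in WT replicates 1, 2 and 3. The ratio of Acta2 to Col2a1 was 0.842, 0.224 and 0.0848 in A2ARKO replicates 1, 2 and 3, and 0.0203, 0.3798 and 4.50 in WT replicates 1, 2 and 3. The match is not complete within WT, where Acta2, Cnn2, Tpm1 and Cald1 were higher in WT replicate 1 than in WT replicate 2. Smtn had the same WT order as the chondrocyte markers, and Tpm2 was highest in WT replicate 2. Nor is the match complete across genotypes. A2ARKO replicate 1 had more Col2a1 than WT replicate 3 and also more Acta2, Tagln, Myh11 and Cnn1. Whether the cartilage state of a litter pool takes part in its contractile gene levels was not tested. No chondrocyte marker was called (0 of 9 tested; limma, 0 at an unadjusted p below 0.05). Comp and Matn1 came nearest to a call, at log2 fold changes of 1.04 and 2.22 (limma adjusted p = 0.4698 and 0.631), and Matn1 reached 5.18 without WT replicate 1 (adjusted p = 0.0222).

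**Figure D4:**
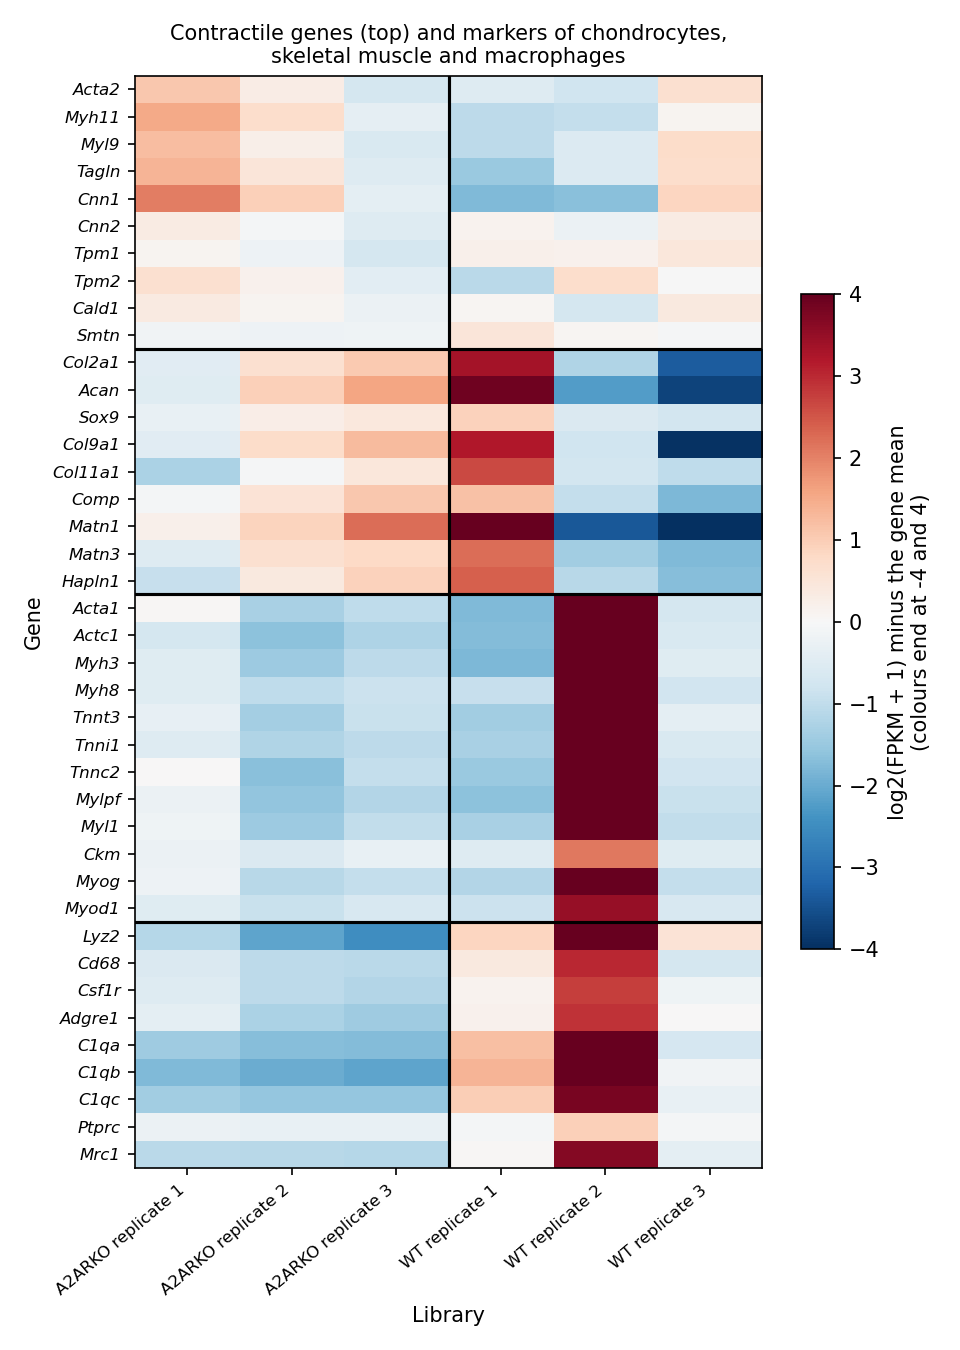
log2(FPKM + 1) of each gene minus its mean over the 6 libraries (red above, blue below; colours end at -4 and 4), with A2ARKO replicates left of the line and WT replicates right of it. The 10 contractile genes at the top are, within their genotype, mostly highest in A2ARKO replicate 1 and WT replicate 3, the 9 chondrocyte markers are highest in A2ARKO replicate 3 and WT replicate 1, and the skeletal muscle and macrophage markers are highest in WT replicate 2.

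Vessel cells, whose walls hold smooth muscle, were checked by their markers. Endothelial markers summed to 1.62 to 2.04 FPKM in A2ARKO and 1.29 to 4 FPKM in WT, with 1 of 8 at 1 FPKM or more in all libraries but WT replicate 1, where 0 were. The vessel marker Pecam1 was at most 0.18 FPKM. Of 8 pericyte markers, 4, 5 and 4 were at 1 FPKM or more in A2ARKO replicates 1, 2 and 3, and 4, 6 and 7 in WT replicates 1, 2 and 3. Kcnj8 was at 0.16, 0.06 and 0.01 FPKM in A2ARKO replicates 1, 2 and 3, and at 0.11, 1.63 and 3.81 FPKM in WT replicates 1, 2 and 3. Abcc9 was at 0.51, 0.14 and 0.12 FPKM in A2ARKO replicates 1, 2 and 3, and at 0.15, 2.43 and 3.01 FPKM in WT replicates 1, 2 and 3. Both were highest in WT replicate 3, the WT library that was also highest for Acta2. Notch3 and Mcam were highest in A2ARKO replicate 1, at 10.10 and 7.41 FPKM, but among the WT libraries Mcam was highest in WT replicate 2 (4.94 FPKM). Other markers went another way. Cspg4 and Pdgfrb were highest in WT replicate 1, at 65.55 and 120.63 FPKM. Cspg4 was lowest in A2ARKO replicate 1 (8.97 FPKM), and Pdgfrb was lowest among the WT libraries in WT replicate 3 (97.53 FPKM). The part of these pericyte markers in the contractile gene levels was not tested. Rgs5 was at most 1.11 FPKM and Higd1b was listed at 0 in 5 libraries and at 0.02 FPKM in WT replicate 2. Pericyte markers summed to 110.2 to 143 FPKM in A2ARKO and 135 to 192 FPKM in WT, mainly from Pdgfrb and Cspg4, which fibroblasts and chondrocytes also express. Of the 4 that were tested, 0 were called by limma and 0 had an unadjusted p below 0.05. Notch3 and Pdgfrb came nearest, at log2 fold changes of 0.68 and -0.30 (limma adjusted p = 0.337 and 0.387). Without WT replicate 3, Notch3 was at 1.12 (adjusted p = 0.0347, against up to 0.5897 with another library left out). Myocd, the SRF cofactor of smooth and heart muscle, was at most 0.11 FPKM.

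Skeletal muscle markers ranged from 12.2 to 2069 FPKM in sum over the WT libraries, with the top sum in WT replicate 2. Tpm2 was also highest in WT replicate 2, at 163.22 FPKM, while Acta2, Tagln, Myh11, Cnn1 and Myl9 were not. In that library Acta2 was at 306.94 and Cnn1 at 3.36 FPKM. Of 8 skeletal muscle markers tested, 0 were called by limma and 0 had an unadjusted p below 0.05. Actc1 and Tnni1 came nearest to a call, at log2 fold changes of -2.39 and -1.86 (limma adjusted p = 0.505 and 0.5101). Without WT replicate 2 these were -0.020 and 0.014. Actc1 was at 317.70 FPKM in WT replicate 2, and at 0.56 and 2.36 FPKM in WT replicates 1 and 3. Of 7 macrophage markers tested, 0 were called by limma and 5 had an unadjusted p below 0.05, against 24.7% of all genes tested. Lyz2 and C1qb were at -3.84 and -3.90 (limma adjusted p = 0.09096 and 0.108). Tek was the 1 endothelial marker tested, at -0.26 (adjusted p = 0.676), and at -0.63 without WT replicate 1 (adjusted p = 0.0453, against up to 0.994 with another library left out).

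The other contractile and actin-binding genes mostly shared the order of the A2ARKO libraries. Of 31 genes 30 were tested and 0 were called higher or lower by limma, where 5.08% of all genes tested were called. Of the 30, 6 had an unadjusted p below 0.05, against 24.7% of all genes tested. The median log2 fold change of the 30 was 0.06 and their median residual SD 0.355. A2ARKO replicate 1 was the highest A2ARKO library for 29 of 31, and WT replicate 3 the highest WT library for 17. These shares were 42.1% and 34.2% of all genes tested. Cnn3, the third calponin gene, was at 78.75, 77.45 and 65.20 FPKM in A2ARKO replicates 1, 2 and 3, and at 94.14, 109.79 and 109.30 FPKM in WT replicates 1, 2 and 3. The groups did not overlap, and the log2 difference was -0.50 (limma adjusted p = 0.079). Myl12b, a regulatory light chain of non-muscle myosin, was at -0.49 (adjusted p = 0.0754, and 0.0428 without WT replicate 1). Actg2, the smooth muscle gamma actin gene, chosen after its values were seen, read 67.39, 36.74 and 13.95 FPKM in A2ARKO replicates 1, 2 and 3, and 3.36, 7.50 and 38.79 FPKM in WT replicates 1, 2 and 3. Across all libraries Actg2 had the same order as Tagln. The log2 fold change of Actg2 was 1.57 with an interval of -0.68 to 3.82 (limma adjusted p = 0.352).

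SRF, the factor upstream of many of these genes, and other genes that respond to the state of the actin cytoskeleton were described beside the set. Srf was at 18.27, 15.30 and 12.98 FPKM in A2ARKO replicates 1, 2 and 3, and at 11.58, 11.15 and 11.12 FPKM in WT replicates 1, 2 and 3. In the FPKM as deposited, the A2ARKO libraries lay above the WT libraries, with a log2 difference of 0.42 (limma adjusted p = 0.117). With libraries rescaled to the same sum it was 0.30 (limma adjusted p = 0.382). The angiomotin-like gene Amotl2 was at 0.89 (adjusted p = 0.0823, and 0.0448 without WT replicate 1). Ctgf (CCN2), chosen after its values were seen, was at 259.44, 381.29 and 475.31 FPKM in A2ARKO replicates 1, 2 and 3 and at 1448.32, 149.59 and 84.65 FPKM in WT replicates 1, 2 and 3, in the order of the chondrocyte markers and not of Acta2.

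Of 15 myofibroblast and fibroblast matrix genes, S100a4 rose, 0 fell and 14 did not pass, where 5.08% of all genes tested were called. Of the 15, 8 had an unadjusted limma p below 0.05, against 24.7% of all genes tested. The median log2 fold change of the 15 was -0.33. S100a4, a calcium-binding protein used as a fibroblast marker, was at 320.0 ± 46.1 FPKM in A2ARKO and 129 ± 42.4 FPKM in WT (SD, n = 3 each), a log2 difference of 1.34 (limma adjusted p = 0.0429). It kept the call only without WT replicate 3 among the 6 fits with a library left out, and lost it at the same library sum (0.092), after quantile normalization (0.0893) and with no filter (0.101). The fibrillar collagen gene Col1a1, chosen after its values were seen, was at 2392.51, 1337.13 and 1138.89 FPKM in A2ARKO replicates 1, 2 and 3, and at 5256.34, 3672.20 and 3396.64 FPKM in WT replicates 1, 2 and 3. It was thus lower in each A2ARKO library than in any WT library, while Acta2 overlapped, and its log2 fold change of -1.39 did not pass (limma adjusted p = 0.121).

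Genes outside the set with the profile nearest to Acta2 over the 6 libraries were Id4, Lmod1, Bok, Thy1 and Lurap1l. Likeness is the root mean square difference of log2(FPKM + 1) after each gene is centred on its own mean, and it lay between 0.221 for Id4 and 0.345 for Lurap1l. Within the set, Myl9 was at 0.2596 from Acta2 and Smtn at 0.841. Lmod1, which encodes the actin nucleator leiomodin 1 of smooth muscle, was at 15.93, 7.90 and 4.46 FPKM in A2ARKO replicates 1, 2 and 3, and at 3.38, 1.86 and 9.15 FPKM in WT replicates 1, 2 and 3. Id4 is a transcriptional regulator without a DNA-binding domain, and Thy1 a surface protein of fibroblasts. Nearest to Tagln were Ptprn, Susd2, Aoc3, Lurap1l and Rgs16, at 0.251 to 0.383, and Myl9 of the set at 0.2197. Aoc3, an amine oxidase of smooth muscle and fat cells, was at 41.61, 16.24 and 14.87 FPKM in A2ARKO replicates 1, 2 and 3, and at 6.47, 16.14 and 25.97 FPKM in WT replicates 1, 2 and 3. None of these genes was called, with limma adjusted p between 0.267 and 0.971. They were picked for likeness to Acta2 or Tagln over all 6 libraries, and those 2 were not called, so this is no separate result.

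Fas, named after its values were seen, lies near Acta2 on the other strand, with 35075 bp between them (chromosome 19, 34290666 to 34327772, plus strand). It encodes a death receptor and was at 28.68, 31.93 and 36.49 FPKM in A2ARKO replicates 1, 2 and 3, and at 8.96, 12.06 and 11.93 FPKM in WT replicates 1, 2 and 3. The gene rose by 1.48 on the log2 scale (SE 0.15; limma adjusted p = 0.0093), and its order of A2ARKO libraries was the reverse of that of Acta2.

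The CArG box, the SRF element, was searched on both strands in the 250 bases before the annotated starts in RefSeq. Of the 10 genes, 8 had an entry, in 9 promoter windows, and Tagln and Myh11 had none. An exact match lay in the windows of Myl9 and Cnn2, 2 of 9, where 1.47% of 32851 windows held one. Allowing 1 base off, 5 of 9 windows matched, those of Acta2, Tpm1 and Cald1 besides, where 18.6% of all windows did. The sites are shown in capitals with 10 bases on each side, 5′ to 3′ along the gene (GRCm38.p6), and where a window held several the best and then the farthest from the start is given.
Myl9, chr2:156775293-156775322, plus strand, exact: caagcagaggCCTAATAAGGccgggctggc
Cnn2, chr10:79988534-79988563, plus strand, exact: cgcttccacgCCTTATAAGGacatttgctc
Acta2, chr19:34255438-34255467, minus strand, 1 base off: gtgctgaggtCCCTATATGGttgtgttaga
Tpm1, chr9:67049415-67049444, minus strand, 1 base off: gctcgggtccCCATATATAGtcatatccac
Cald1, chr6:34598291-34598320, plus strand, 1 base off: acggtttcaaGCTTTTTAGGacttggtttt
The capitals begin 161, 56, 84, 221 and 203 bases before the RefSeq start of Myl9, Cnn2, Acta2, Tpm1 and Cald1. These starts can differ from those of the gene positions given above, which are from GENCODE, and the Acta2 site lies inside the GENCODE span of that gene. Of the genes with an exact match, Myl9 varied 3.62-fold in A2ARKO and 3.51-fold in WT, and Cnn2 1.83-fold in A2ARKO and 1.49-fold in WT. The part of these sites in the levels was not tested. Cnn1, the gene with the largest residual SD on the log2(FPKM + 1) scale, had no match in its window, which says only that these letters are not in those 250 bases.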

How the data were processed

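RNA of 6 litter pools, 3 A2ARKO and 3 WT, was sequenced on an Illumina instrument, per the labels' protocols. The authors deposited 1 table of FPKM with 2 decimals. HTSeq and the build mm10 are named in the submitters' processing notes. Not given in the sources used here are the aligner, versions, annotation, gene lengths and the strand handling. FPKM carry no count error. Their steps among genes of at most 150 nt gave whole reads (tolerance 0.1 read) for 99.0% or more of low values and so a depth per library. Even the closest pair within a genotype (A2ARKO replicates 2 and 3) differed beyond counting noise, with a chi-square that was, in the median gene, 14.6 times the value counting noise gives.

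Genes with 1 FPKM or more in at least 3 of 6 libraries (11595) were fitted with limma 3.58.1 in R 4.3.3 (lmFit, eBayes with trend, log2(FPKM + 1), two-sided, Benjamini-Hochberg over all genes, no block). The fit was checked on simulated data in which every gene had the median residual SD of all genes tested, 0.162. That check does not cover genes that spread as widely as most of the 10. P-values weigh the genotype difference against the spread between litter pools, which limma draws toward a trend over all genes. Positions and exon lengths are from GENCODE M21 (GRCm38, the assembly named mm10). The 10 genes, the lists and tests were chosen with earlier results of these data known. Named were the 10 genes, Adora2a, up to 4 called genes per list by size of change (or the 2 with the smallest p), and the 5 genes nearest to Acta2 and to Tagln. Alternatives were a pseudocount of 0.1, no filter, rescaling to the same sum, quantile normalization, array weights per genotype, a replicate block and each library left out in turn. The marker Cnmd, not matched by symbol, was not used. Some results of the lists fixed are not reported here.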

Additional observations from a re-analysis of the deposited data

How the results depend on the processing

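Of the 10 contractile genes, 0 were called higher and 0 lower in all 12 alternatives run, and the lowest adjusted p was 0.0999 (Cnn1 without WT replicate 3). At an unadjusted p below 0.05, between 0 and 3 of the 10 passed. Acta2, Tagln, Myh11, Cnn1 and Myl9 stayed above 0 and Tpm1 and Smtn below 0 in all 12. With each library left out in turn, log2 fold changes lay between 0.021 and 0.92 for Acta2, 0.096 and 1.079 for Myl9, 0.38 and 1.47 for Tagln, 0.80 and 1.74 for Myh11, 1.14 and 2.59 for Cnn1, -0.73 and -0.32 for Tpm1 and -0.46 and -0.20 for Smtn, so leaving out 1 library moved each by over 1.5 times. Where the sign turned, values lay between -0.38 and 0.057 for Cnn2, -0.22 and 0.68 for Tpm2, -0.16 and 0.39 for Cald1, -2.97 and 0.014 for Tnni1, -0.63 and 0.0048 for Tek and -0.36 and 0.34 for Thy1; Thy1 was also at -0.083 at the same library sum and -0.0103 after quantile normalization, and the cause was not tested. Over all genes, 589 were called, against 213 with no filter, 348 at the same library sum and 50 to 900 with a library left out; the cause was not tested, beyond the fewer libraries. The share of higher calls was 65.2%, 51.1% at the same sum and 53.8% after quantile normalization. The replicate block left 2 calls and 0 of the 10 genes; the numbers share no litter, and same-numbered libraries deviated against each other (correlations across genes of -0.52, -0.33 and -0.39), so they were not treated as pairs. Acta2, Tagln and Cnn1 had residual SDs of 0.83, 1.02 and 1.37 beside a median of 0.162 over all genes tested.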
